A study of Mus musculus with 12 samples.

Results

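The enzymes and transporters that carry glucose to pyruvate, lactate and the tricarboxylic acid (TCA) cycle were followed in mouse embryonic stem cells depleted of Krr1, a factor in building the small subunit of the ribosome. The set was given as a list of 32 gene symbols, and all 32 were found among the 23420 symbols of both count tables. R1 embryonic stem cells grew on gelatin with LIF, and transfection lasted 48 h. Per the series' design, the 3 control siRNAs differ from each other, as do the 3 that target Krr1. The 3 control lysates are called siGFP, siNC and Lipo (the last name states no siRNA), and the 3 knockdown lysates siKrr1 A, siKrr1 C and siKrr1 D, after the table columns. Each lysate was divided, so that total RNA (rRNA-depleted, fragments of 40 to 60 nt) and ribosome footprints (about 30 nt, the RNA that translating ribosomes shield from RNase) were sequenced from the same cells, giving 12 libraries. No label states separate cultures beyond the siRNA names, so p-values measure the spread between these lysates, which includes differences between siRNAs.

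Glycolysis splits glucose into pyruvate and yields ATP without oxygen. Pyruvate is then either reduced to lactate and exported or oxidised to acetyl-CoA by the mitochondrial pyruvate dehydrogenase complex, which feeds the TCA cycle. Mouse embryonic stem cells in LIF use both routes, and many glycolytic genes are known targets of the hypoxia-inducible factors (HIF) and of Myc.

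Counts on genes were 31318772 to 39670139 per RNA library and 21615934 to 28911254 per footprint library, and the 32 members took 1.13% to 1.29% of the former and 1.04% to 1.15% of the latter. Levels are given as CPM (counts scaled to library size by TMM), and levels of different genes are not compared, since CPM is not scaled to gene length. Krr1 itself fell from 156 ± 4.46 to 52.1 ± 16.3 CPM in RNA (SD, n = 3; log2 fold change -1.58 ± 0.18 SE, edgeR adjusted p = 0.00228) and from 165 ± 6.42 to 48.2 ± 15.6 CPM in footprints (-1.77 ± 0.18, edgeR adjusted p = 0.000819). Krr1 RNA in lysates A, C and D was 21.7%, 37.3% and 41.5% of its mean control level. The stem cell markers Pou5f1 (2927 CPM in control RNA) and Sox2 (587 CPM) were high. The fibroblast and erythroid genes Col3a1, Postn, Hbb-b1 and Hba-a1 were at 0 in all RNA libraries. Of 8 embryonic stem cell markers, 5 fell in knockdown RNA (Nanog, Klf4, Tfcp2l1, Zfp42 and Esrrb, edgeR) and 3 did not pass the test (Pou5f1, Sox2 and Dppa5a). Nanog went from 449 ± 4.35 to 299 ± 38.4 CPM (edgeR adjusted p = 0.00758), and the summed level of the 8 was 7866 to 8054 CPM in controls and 6181 to 7423 CPM in knockdown lysates. Of 5 neural markers Neurod1 rose (1.89 to 4.98 CPM) and Tubb3 fell (132 to 74.9 CPM), and the sum was 136 to 148 CPM in controls and 79.5 to 96.3 CPM in knockdown lysates. Kdr, of 5 mesoderm markers, rose from 2.84 to 7.98 CPM (sums 4.03 to 4.49 and 7.37 to 14.5 CPM), and Krt7, of 5 trophectoderm markers, from 0.106 to 0.658 CPM (sums 18.5 to 21.3 and 17.1 to 22.6 CPM). Krt7 was too low to be tested in footprints. Eomes, another trophectoderm marker, went the other way. It was at 10.7 CPM in control and 7.81 CPM in knockdown RNA (edgeR adjusted p = 0.129). In footprints Eomes fell from 18.8 to 12.7 CPM (edgeR adjusted p = 0.034). The part of cell state in the results that follow was not tested. In bulk samples, fewer cells of a type and less RNA per cell cannot be told apart.

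Most of the 32 members stayed near the control level. In RNA, 0 of 32 passed an edgeR adjusted p under 0.05 (quasi-likelihood test, Benjamini-Hochberg over 14038 genes), beside 4.8% of all genes tested. At an unadjusted p under 0.05 there were 6 members (1 higher, 5 lower), beside 20.9% of all genes. DESeq2 called 2 members in RNA, Hk1 and Pfkp, beside 1202 of 14038 genes. In footprints 1 of 32 was called, the glucose transporter Slc2a3, which fell. The shares over all genes were 6.07% in either direction and 2.68% lower. At an unadjusted p under 0.05 there were 7 members in footprints (2 higher, 5 lower), beside 22.5% of all genes. The median log2 fold change of the members was -0.03 in RNA (-0.00 over all genes) and -0.07 in footprints (0.01 over all genes). These medians depend on single lysates. In RNA the median was -0.04 without siGFP, -0.0054 without Lipo and -0.06 without siKrr1 A, and turned positive without siNC (0.02) or siKrr1 D (0.01). In footprints it was -0.04 without siNC and stayed between -0.08 and -0.06 without any 1 of the others.

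**Figure D1:**
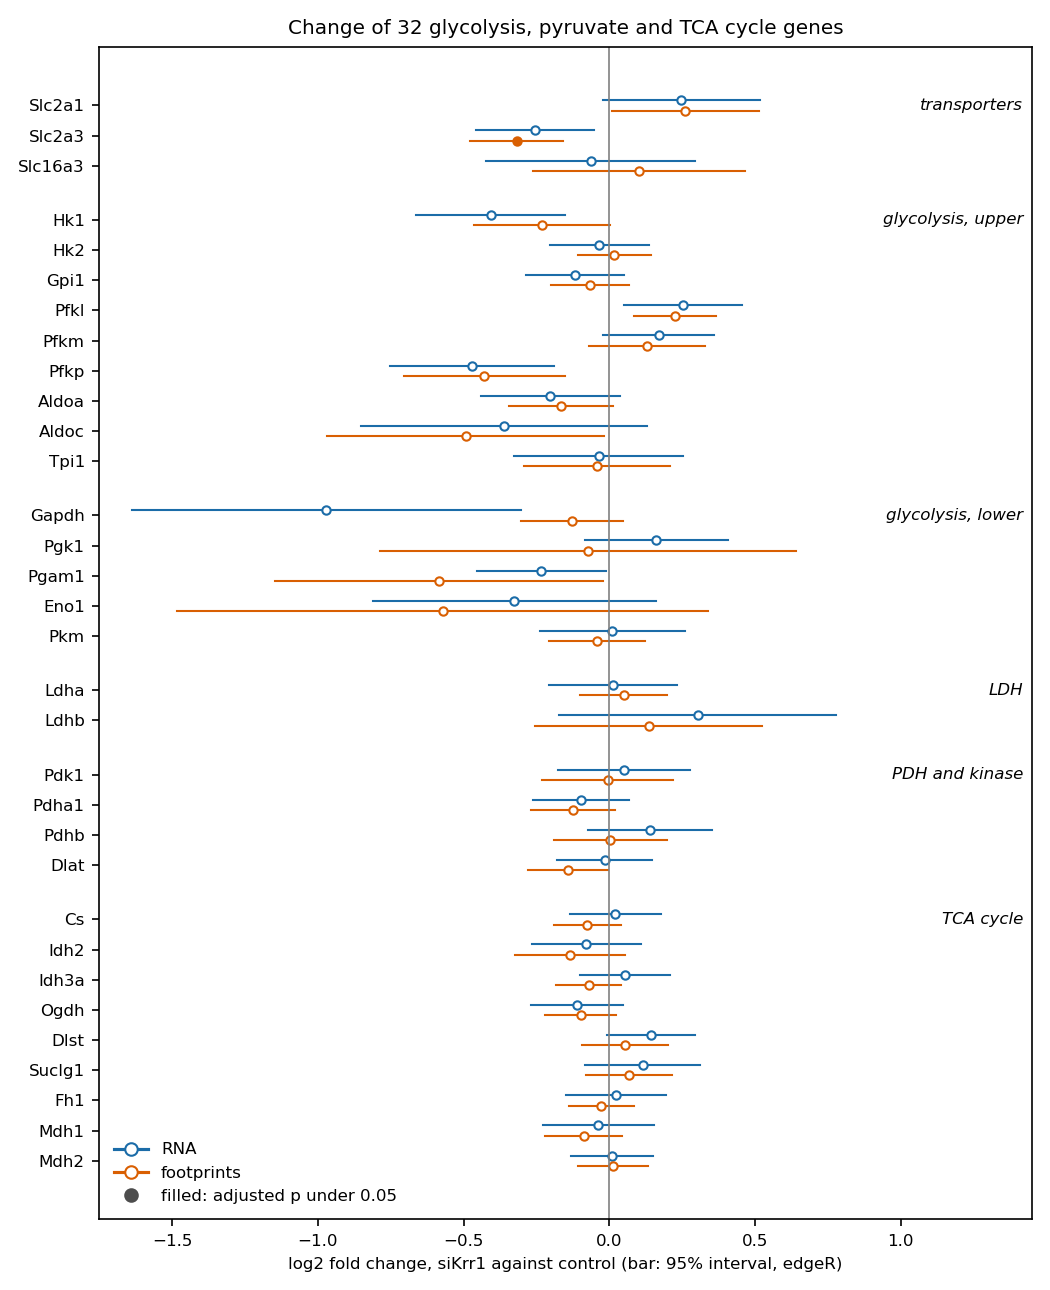
Log2 fold change of each of the 32 members (siKrr1 against control, 3 lysates each) in RNA (blue) and footprints (orange), ordered by role, with 95% intervals from edgeR; filled points have an adjusted p under 0.05. Slc2a3 in footprints (-0.32) is the only filled point. The members at the bottom of the plot, pyruvate dehydrogenase and the TCA cycle, span a narrower range than the glycolytic members, some of which also lie near 0.

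Separation of the groups gave a similar count. In RNA, 1 member was higher in all 3 knockdown lysates than in any control (Dlst), beside 13.6% of all genes, and 5 were lower (Slc2a3, Hk1, Pfkp, Pgam1 and Ogdh), beside 13.4%. In footprints 1 was higher (Pfkl), beside 14.3% of all genes, and 5 were lower (Slc2a3, Hk1, Pfkp, Idh3a and Ogdh), beside 13.6%. The 5 lower members of 32 in each assay are near the share over all genes, and the 1 higher member is under it; neither was tested. Slc2a3, Hk1, Pfkp and Ogdh were in both lower sets. The assays share their lysates, so these sets are not independent, and the share of all genes lower in both assays was not computed.

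The entry step showed the called change. Slc2a3 encodes GLUT3, a high-affinity glucose transporter (chr6:122727809-122802363, mm10). Its footprints were at 1880 CPM in siGFP, 2138 in siNC and 1909 in Lipo, against 1472, 1738 and 1544 CPM in the knockdown lysates A, C and D. All 3 knockdown values lay under the lowest control. The footprint level fell from 1976 ± 142 to 1584 ± 137 CPM (log2 fold change -0.32 ± 0.07 SE, edgeR adjusted p = 0.0282). The call was lost when 1 lysate was left out in 4 of 6 cases: leaving out siGFP gave an edgeR adjusted p of 0.0731, siNC 0.131, Lipo 0.0956 and siKrr1 D 0.066. It was 0.0489 without siKrr1 A and 0.00555 without siKrr1 C. Slc2a3 RNA was at 2113, 2506 and 2128 CPM in siGFP, siNC and Lipo and at 1778, 2056 and 1815 CPM in knockdowns A, C and D. The RNA groups did not overlap either, but the change (-0.26 ± 0.09) was not called (edgeR adjusted p = 0.138).

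Slc2a1 encodes GLUT1, the widely expressed basal glucose transporter (chr4:119108745-119137330). Its RNA was at 331, 399 and 293 CPM in siGFP, siNC and Lipo, and at 449, 339 and 426 CPM in knockdowns A, C and D. siKrr1 C fell within the control range and the other two knockdown lysates lay above it. The log2 fold change was 0.25 ± 0.12 in RNA (edgeR adjusted p = 0.281) and 0.26 ± 0.11 in footprints (574 ± 92.7 to 687 ± 89.8 CPM, edgeR adjusted p = 0.205). The third transporter of the set, the lactate exporter Slc16a3 (MCT4), overlapped between groups in both assays, with log2 fold changes of -0.06 in RNA and 0.10 in footprints. Its highest value was that of the control siNC (98.0 CPM in RNA against 57.9 to 77.6 CPM in the other 5 lysates).

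Among the 7 gene pairs compared within libraries, described further on, Pfkl and Pfkp differed most in both assays. Phosphofructokinase catalyses the committed step of glycolysis, and its subunits are encoded by Pfkl (liver type, chr10:77986947-78009807), Pfkm (muscle type) and Pfkp (platelet type, chr13:6579874-6649060). Pfkp RNA was at 361, 458 and 382 CPM in siGFP, siNC and Lipo and at 231, 301 and 335 CPM in knockdowns A, C and D. All 3 knockdown values were under the lowest control, and that of siKrr1 A was the lowest. The log2 fold change of Pfkp was -0.47 ± 0.13 in RNA (edgeR adjusted p = 0.0613) and -0.43 ± 0.13 in footprints (519 ± 43.1 to 386 ± 81.9 CPM, edgeR adjusted p = 0.0697). Without siKrr1 D, Pfkp was called in both assays, with edgeR adjusted p of 0.0476 in RNA and 0.0198 in footprints. Without siNC the values were 0.222 and 0.225 (edgeR adjusted p).

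Pfkl moved the other way. Its footprints were at 242, 266 and 227 CPM in siGFP, siNC and Lipo and at 279, 291 and 289 CPM in knockdowns A, C and D. The groups did not overlap, and the log2 fold change was 0.22 ± 0.06 (edgeR adjusted p = 0.063), which missed the threshold. In RNA, Pfkl was at 312, 373 and 292 CPM in the controls and at 398, 399 and 367 CPM in the knockdown lysates. The knockdown value of siKrr1 D lay within the control range (0.25 ± 0.09, edgeR adjusted p = 0.143). Pfkm had log2 fold changes of 0.17 in RNA and 0.13 in footprints, with overlapping groups.

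**Figure D2:**
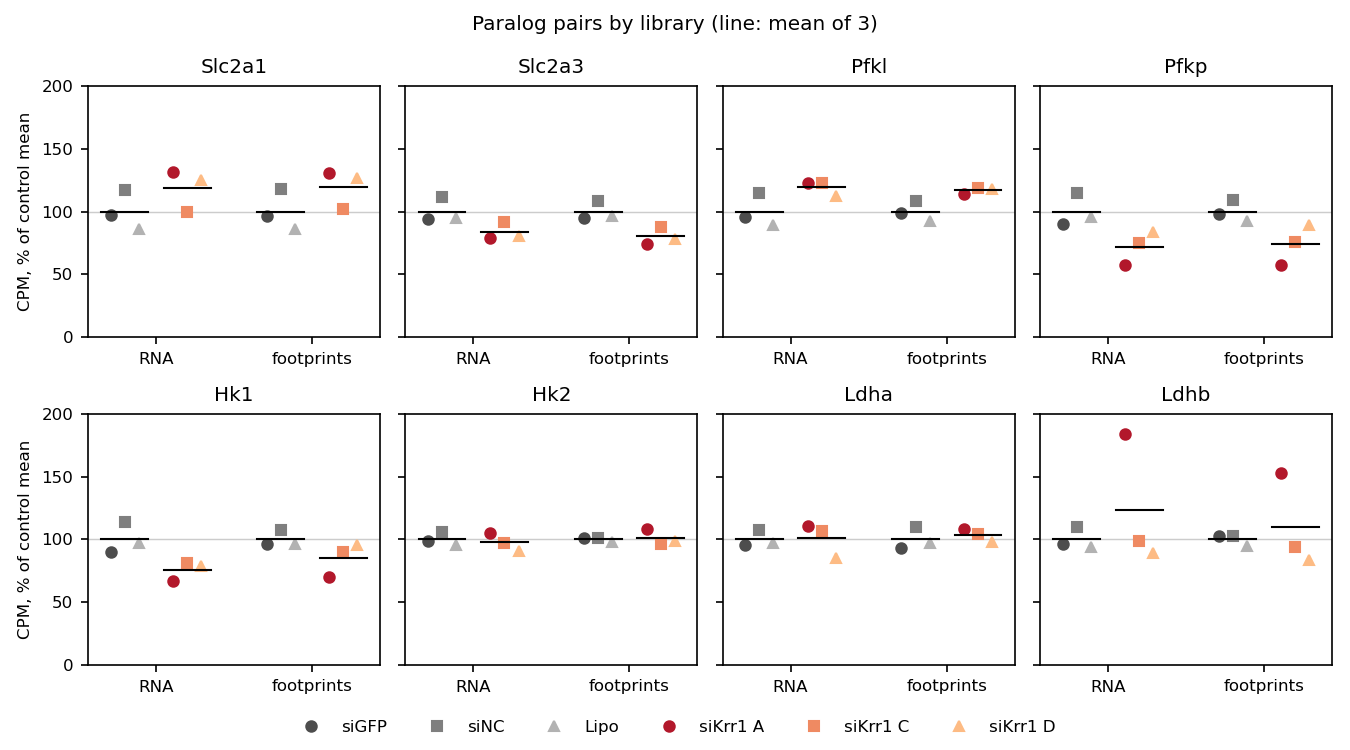
CPM of 4 paralog pairs in each library as a percentage of the mean of the 3 controls, for RNA and footprints; grey symbols are controls, red symbols are knockdown lysates, and lines are means of 3. Pfkp and Slc2a3 lie below every control in each knockdown lysate, Slc2a1 in siKrr1 C (99.5% in RNA) lies among the controls, and Ldhb is high in siKrr1 A alone (184% in RNA).

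Promoters of Slc2a1, Pfkl and Pfkp, which had fold changes of either sign, are shown because hypoxia-inducible factors bind the core ACGTG or GCGTG in many glycolytic promoters. The 250 bases before the RefSeq start site are printed 5' to 3' in the direction of the gene, from RefSeq on GRCm38.p6 (mm10). They are chr4:119108495-119108744 on the plus strand for Slc2a1, chr10:78009808-78010057 on the minus strand for Pfkl and chr13:6648772-6649021 on the minus strand for Pfkp. The start sites of Slc2a1 and Pfkl are the outer ends of their gene spans, while that of Pfkp lies 289 bases inside the span given above, so its window is not upstream of the gene's outermost start. Capitals mark each core, on either strand, so a core on the other strand is read as CACGT or CACGC.
Slc2a1: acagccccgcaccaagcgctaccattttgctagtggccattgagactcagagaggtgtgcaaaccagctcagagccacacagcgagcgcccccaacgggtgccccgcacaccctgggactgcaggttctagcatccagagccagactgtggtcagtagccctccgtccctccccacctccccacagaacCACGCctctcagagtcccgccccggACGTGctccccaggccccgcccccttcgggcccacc
Pfkl: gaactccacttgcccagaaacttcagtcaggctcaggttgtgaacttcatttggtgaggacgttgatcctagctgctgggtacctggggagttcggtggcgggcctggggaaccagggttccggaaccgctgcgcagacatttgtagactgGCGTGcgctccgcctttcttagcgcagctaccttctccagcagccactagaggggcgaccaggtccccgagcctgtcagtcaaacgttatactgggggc
Pfkp: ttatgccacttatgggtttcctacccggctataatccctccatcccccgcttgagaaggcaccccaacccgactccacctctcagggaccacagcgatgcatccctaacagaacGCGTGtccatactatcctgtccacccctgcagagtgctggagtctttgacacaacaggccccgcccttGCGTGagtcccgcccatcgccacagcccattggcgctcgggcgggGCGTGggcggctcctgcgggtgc
The Slc2a1 window held 2 cores, the Pfkl window 1 and the Pfkp window 3. Of the 30 member genes with a promoter entry, 25 (83.3%) held a core in some window, beside 61.8% of the 10191 genes with an entry that were tested in RNA and 41.5% of all 27025 genes with an entry. A gene with more windows has more places for a core, and the 30 members had 47 windows while the 27025 genes had 32851. Counted by window, 37 of the 47 (78.7%) held a core, beside 38.6% of all windows. The share by window was not computed for the genes tested, and the excess in members was not tested. The windows were 59.4% G or C in members and 60.2% in the genes tested. The E-box CACGTG, the letters bound by Myc, holds the core ACGTG within it, and stood in 3 of the 30 member genes, beside 10.1% of the genes tested. A match is a description of the letters and not of a bound site.

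Within-library ratios compare 2 genes of a pair on the same reads and do not depend on library scaling. Counts were used, so a ratio is read only between lysates. The log2 count ratio of Pfkl to Pfkp in RNA was -0.21, -0.30 and -0.39 in siGFP, siNC and Lipo and 0.79, 0.41 and 0.13 in knockdowns A, C and D. Every knockdown ratio was above every control ratio, a difference of 0.74 on the log2 scale. In footprints the same ratio was -1.08, -1.09 and -1.08 in the controls and -0.11, -0.43 and -0.68 in knockdowns A, C and D, a difference of 0.68. The control footprint ratios differed by little (SD 0.0058), and those of the knockdown lysates were spread over a wider range (SD 0.288).

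Put as shares, Pfkl made up 41.0% ± 1.30 of the phosphofructokinase counts in control RNA and 51.7% ± 4.74 in knockdown RNA (SD, n = 3). In footprints the share was 29.1% ± 0.40 in controls and 38.1% ± 4.09 in knockdown lysates. The ratio of Pfkm to Pfkp was also higher in every knockdown lysate, by 0.65 in RNA and 0.58 in footprints on the log2 scale. Both ratios share Pfkp as the denominator and are not independent.

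The transporter pair gave a ratio of Slc2a1 to Slc2a3 in RNA of -2.68, -2.65 and -2.86 (log2) in siGFP, siNC and Lipo and of -1.99, -2.60 and -2.09 in knockdowns A, C and D. The groups did not overlap, although siKrr1 C stood just above siNC. The difference was 0.50 in RNA and 0.58 in footprints, where the groups did not overlap either. The ratio of Hk1 to Hk2, the hexokinases that trap glucose as glucose 6-phosphate, was lower in every knockdown lysate in RNA (difference -0.37), and overlapped in footprints (-0.26). The aldolase ratio (Aldoa to Aldoc, 0.10 in RNA), the lactate dehydrogenase ratio (Ldha to Ldhb, -0.23) and the ratio of Pdk1 to Pdha1 (0.14) overlapped between groups.

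Of the 7 pairs, the 4 without overlap in RNA had an exact two-sided permutation p = 0.1, the smallest that 3 against 3 lysates can give, or 0.175 after Benjamini-Hochberg adjustment over the 7 pairs. The 3 without overlap in footprints had the same exact permutation p = 0.1, or 0.233 after adjustment. With 3 lysates a group, this exact test cannot give a single ratio a p under 0.05. No share over all gene pairs was computed, so the counts of 4 and 3 have no background beside them. Each of these pairs holds Slc2a3, Hk1 or Pfkp, whose own levels did not overlap between groups in either assay. The ratios are therefore not independent of those changes.

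**Figure D3:**
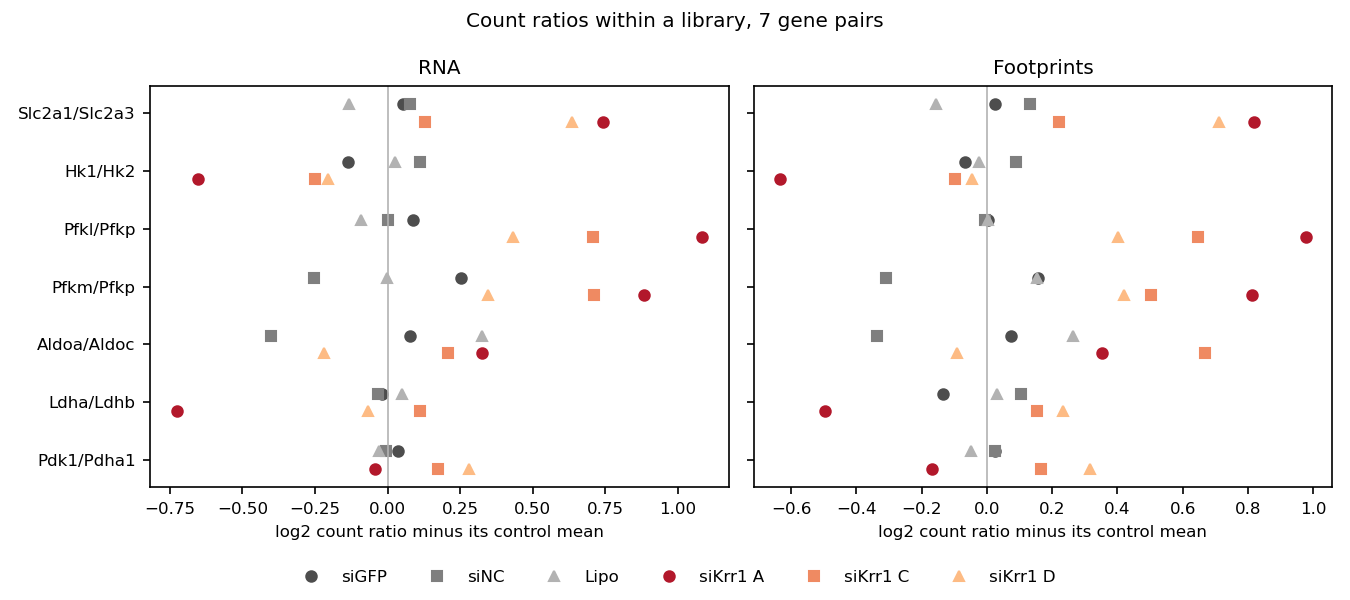
Log2 ratio of the counts of 2 members in the same library, minus the mean of the 3 controls, for 7 pairs in RNA (left) and footprints (right); each symbol is 1 lysate, controls in grey above and knockdown lysates in red below. The ratios of Pfkl and Pfkm to Pfkp and of Slc2a1 to Slc2a3 lie right of all controls in each knockdown lysate, and the ratio of Ldha to Ldhb is lowest in siKrr1 A in both assays.

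In the remaining upper steps of glycolysis, changes were small or variable. Hk1 RNA was at 26.7, 33.8 and 28.8 CPM in siGFP, siNC and Lipo and at 19.8, 24.2 and 23.3 CPM in knockdowns A, C and D. The groups did not overlap (-0.41 ± 0.12, edgeR adjusted p = 0.0713). Its footprints were at 62.0, 68.9 and 61.7 CPM in the controls and at 44.8, 57.9 and 61.2 CPM in knockdowns A, C and D, where siKrr1 D lay just under Lipo (-0.23 ± 0.11, edgeR adjusted p = 0.228). Hk2, the other hexokinase, was at 97.7% of its control level in RNA and 101% in footprints. Its 95% interval ran from -0.21 to 0.14 in RNA and from -0.11 to 0.14 in footprints (log2 fold change).

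The aldolases cleave fructose 1,6-bisphosphate. Aldoa RNA was at 936, 1114 and 935 CPM in siGFP, siNC and Lipo and at 821, 1006 and 766 CPM in knockdowns A, C and D, with overlapping groups (-0.20 ± 0.11, edgeR adjusted p = 0.317). Aldoc footprints were at 12.4, 19.3 and 10.9 CPM in the controls and at 8.86, 8.59 and 12.7 CPM in the knockdown lysates, and also overlapped (-0.49 ± 0.22, edgeR adjusted p = 0.205). Gpi1 (glucose 6-phosphate isomerase) and Tpi1 (triosephosphate isomerase) had log2 fold changes of -0.12 and -0.04 in RNA and of -0.07 and -0.04 in footprints, with overlap in both assays.

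The lower steps, which recover ATP, hold the members measured least firmly. Only uniquely aligned reads were counted, and Gapdh, Pgk1, Pgam1 and Eno1 have near-identical copies in the mouse genome, so that their counts are uncertain. Footprint counts were 14 to 18 per library for Pgk1, 9 to 22 for Eno1 and 43 to 92 for Pgam1. The Eno1 copy Eno1b, listed as Gm5506 in the tables, had 573 to 881 footprint counts per library.

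Gapdh (glyceraldehyde 3-phosphate dehydrogenase) RNA was at 65.6 CPM in siGFP, 27.6 in siNC and 28.6 in Lipo, and at 27.7, 18.5 and 16.1 CPM in knockdowns A, C and D. The value of siGFP was more than that of any other lysate, and siKrr1 A overlapped with siNC. The log2 fold change was -0.97 ± 0.30 (edgeR adjusted p = 0.0954) with siGFP and -0.43 (edgeR adjusted p = 0.337) without it. Gapdh footprints were at 49.5, 55.5 and 46.3 CPM in the controls and at 46.7, 46.9 and 44.9 CPM in the knockdown lysates, with no such high value in siGFP (-0.13 ± 0.08, edgeR adjusted p = 0.38).

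Pgam1 (phosphoglycerate mutase) footprints were at 2.54, 3.31 and 2.00 CPM in siGFP, siNC and Lipo and at 2.03, 1.80 and 1.46 CPM in knockdowns A, C and D, with siKrr1 A just above Lipo (-0.58 ± 0.26, edgeR adjusted p = 0.205). The intervals of Pgam1 and Eno1 footprints reached beyond a 2-fold fall. Pkm, pyruvate kinase, was measured with many reads. Its RNA was at 1940, 2335 and 2085 CPM in the controls and at 2420, 2217 and 1770 CPM in knockdowns A, C and D. Knockdown values lay on both sides of the control range (log2 fold change 0.01, 95% interval -0.24 to 0.26), and the footprint value was -0.04 (-0.21 to 0.12).

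Lactate dehydrogenase interconverts pyruvate and lactate. Ldha RNA was at 778, 876 and 792 CPM in siGFP, siNC and Lipo and at 905, 867 and 694 CPM in knockdowns A, C and D. The groups overlapped, with a log2 fold change of 0.01 in RNA and 0.05 in footprints. Ldhb, chosen here after its values were seen, stood out in 1 lysate: its RNA was at 85.2 CPM in siKrr1 A against 41.4 to 51.0 CPM in the other 5. Its footprints were at 83.5 CPM in siKrr1 A against 45.5 to 56.1 CPM elsewhere. The Ldhb log2 fold change in RNA was 0.30 with siKrr1 A and -0.09 without it, and neither was called (edgeR adjusted p of 0.473 and 0.654).

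Pyruvate dehydrogenase and the TCA cycle were measured more tightly. All 13 of these members had 95% intervals inside a 1.5-fold change in both assays, and 7 of 13 in RNA and 10 of 13 in footprints lay inside a 1.2-fold change. For the 19 members of glycolysis, transport and lactate metabolism, 13 intervals lay inside a 1.5-fold change in RNA and 14 in footprints, and 3 and 4 inside a 1.2-fold change. The log2 fold changes of the 13 ran from -0.11 to 0.14 in RNA and from -0.14 to 0.07 in footprints, and none was called by edgeR or DESeq2 in either assay. At an unadjusted p under 0.05 (edgeR) there were 0 of the 13 in RNA and 1 in footprints (Dlat), beside 20.9% and 22.5% of all genes.

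Pyruvate dehydrogenase is built from the E1 subunits Pdha1 and Pdhb and the acetyltransferase Dlat, and is switched off by the kinase Pdk1, a HIF target. Dlat footprints were at 132, 144 and 151 CPM in siGFP, siNC and Lipo and at 128, 132 and 127 CPM in knockdowns A, C and D. The siKrr1 C value lay level with the lowest control (-0.14 ± 0.06, edgeR adjusted p = 0.212). Pdk1 RNA varied among the knockdown lysates (478 to 646 CPM) more than among the controls (556 to 571 CPM), and its log2 fold change was 0.05, with a 95% interval of -0.18 to 0.28.

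Citrate synthase (Cs) opens the cycle. Its footprints were at 429, 424 and 416 CPM in siGFP, siNC and Lipo and at 385, 419 and 400.1 CPM in knockdowns A, C and D, where siKrr1 C overlapped with the controls (-0.08 ± 0.05, edgeR adjusted p = 0.44). Footprints of Idh3a, a subunit of the NAD-dependent isocitrate dehydrogenase, were at 296, 281 and 285 CPM in the controls and at 277, 269 and 275 CPM in the knockdown lysates. These groups did not overlap, by a small margin (-0.07 ± 0.05, edgeR adjusted p = 0.453). Ogdh and Dlst, subunits of the 2-oxoglutarate dehydrogenase complex, had RNA changes of opposite sign without overlap, -0.11 ± 0.07 for Ogdh (edgeR adjusted p = 0.424) and 0.14 ± 0.07 for Dlst (edgeR adjusted p = 0.262). For Suclg1, Fh1 and Mdh2, which carry out later steps of the cycle, and Mdh1, the cytosolic malate dehydrogenase, log2 fold changes ran from -0.04 to 0.11 in RNA and from -0.09 to 0.07 in footprints, with overlap in each case.

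The controls themselves differed more for glycolysis than for the TCA cycle. The coefficient of variation over the 3 controls had a median of 12.3% over the 19 glycolysis, transport and lactate members in RNA and of 3.8% over the 13 pyruvate dehydrogenase and TCA members, beside 4.75% over the 7124 tested genes with at least 20 CPM. In footprints the medians were 9.2%, 2.7% and 4.15%. The minimum of 20 CPM was set for the background genes only. Some of the 19 lay under it in both assays, down to 0.642 CPM for Eno1 in control footprints. The siNC lysate was the highest control in 15 of the 19 in RNA and, likewise, in 15 of 19 in footprints, beside 36.8% and 32.7% of those genes overall. For the 13 it was the highest control in 7 in RNA and in 4 in footprints. This summary was chosen after the values were seen, and its relation to the siRNA used was not tested.

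Translational efficiency was taken as the change in footprints relative to the change in RNA (the interaction of assay and condition, edgeR over 12 libraries). Of 14236 genes tested 0 were called (0%), and 0 of the 32 members. At an unadjusted p under 0.05 there was 1 member, Gapdh, beside 2.37% of all genes, and DESeq2 called 0 members. The Gapdh value, 0.84 ± 0.37 (edgeR adjusted p = 0.9999), rests on its RNA in siGFP: it was 0.29 without that lysate. The next smallest unadjusted p-values were those of Pgam1 (-0.37 ± 0.24), Idh3a (-0.13 ± 0.08), Dlat (-0.13 ± 0.10) and Cs (-0.10 ± 0.09). The median over the 32 members was -0.05 (0.00 over all genes). Of the 13 pyruvate dehydrogenase and TCA members, 12 had a negative value, of -0.14 at the lowest. Negative values made up 49.9% of all genes tested and 10 of the 19 other members. Outside the set, 16 of the 32 tested genes of pyruvate and TCA metabolism were negative. Under the alternatives run, which use the same libraries, 11 or 12 of the 13 were negative. The number of negative signs was not tested. The median over the 32 members was -0.02 without siGFP, -0.03 without Lipo and -0.02 without siKrr1 A. It was -0.07 without siNC, -0.05 without siKrr1 C and -0.07 without siKrr1 D. The fold changes, SEs and unadjusted p-values above come from a fit without a lysate block, which leaves the pairing of RNA and footprints unused. With each lysate as a block, as the divided lysates allow, 6 genes were called and again 0 members.

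In control cells, footprints per RNA (footprint CPM over RNA CPM of the same gene) differed widely among the members. Transcript and coding lengths were not at hand. The part that the coding share of a transcript has in differences between genes was therefore not tested. Among 10000 genes with at least 5 CPM of RNA, the median log2 ratio was -0.25. The median over the 32 members was 0.14, and 21 of 32 lay above the median of all. The mitochondrial malate dehydrogenase Mdh2 had 3.65 times as many footprint CPM as RNA CPM, at percentile 98.0. Hk1 (2.17), Suclg1 (1.89) and Slc2a1 (1.68) followed.

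At the low end, the ratio was 0.0213 for Pgk1, 0.0764 for Pgam1 and 0.143 for Eno1, which are among the 4 genes named above for their near-identical copies (the other is Gapdh). A footprint read is shorter than an RNA fragment, and the effect of that on unique alignment was not tested. Of the members other than these 4, Pdk1 was lowest (0.327, at percentile 8.77), ahead of Pkm (0.501), Tpi1 (0.56) and Idh2 (0.569). The 2 glucose transporters differed in this measure, Slc2a1 at 0.75 ± 0.01 and Slc2a3 at -0.18 ± 0.04 (log2, SD, n = 3). In knockdown lysates the values were 0.77 ± 0.02 and -0.25 ± 0.02.

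**Figure D4:**
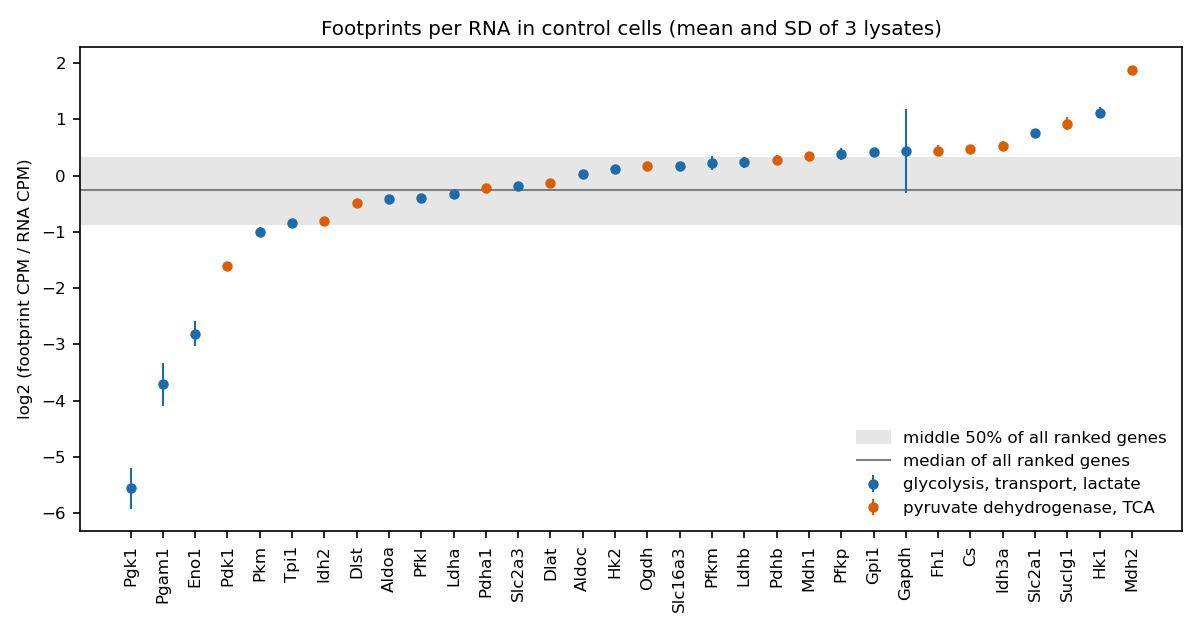
Log2 of footprint CPM over RNA CPM in control cells for each of the 32 members (mean and SD of 3 lysates), in rising order, with the median (-0.25) and the middle 50% of all ranked genes. Mdh2 stands highest, Pgk1, Pgam1 and Eno1 lie far below the other members, and the wide bar of Gapdh comes from siGFP.

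Further called changes were in genes of the pathway outside the set. Among 32 tested genes of pyruvate and TCA metabolism, 1 rose and 2 fell in RNA, and 2 rose and 2 fell in footprints (edgeR). The edgeR shares over all genes were 4.8% in RNA and 6.07% in footprints. DESeq2 called 6 in each assay, beside 1202 of 14038 genes in RNA and 1157 of 13287 in footprints. Pck2 (mitochondrial phosphoenolpyruvate carboxykinase, a known ATF4 target) fell from 38.7 ± 4.80 to 21.3 ± 3.28 CPM in RNA (-0.86 ± 0.13, edgeR adjusted p = 0.00708) and by 0.78 on the log2 scale in footprints (edgeR adjusted p = 0.00958). Pdp2, a phosphatase that reactivates pyruvate dehydrogenase, fell by 0.51 in RNA (edgeR adjusted p = 0.0209) and by 0.40 in footprints (0.0232).

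Aco1, a cytosolic aconitase that as an apoprotein binds iron-responsive elements, rose by 0.39 on the log2 scale in RNA (edgeR adjusted p = 0.0212) and by 0.40 in footprints (0.0117). Ogdhl, a paralog of Ogdh, rose in footprints (153 ± 13.9 to 199 ± 22.1 CPM, edgeR adjusted p = 0.0303), with an RNA change of 0.33 that missed the threshold (edgeR adjusted p = 0.0504). With 1 lysate left out, Pck2 remained called in all 6 cases in RNA and in footprints lost the call only without Lipo (edgeR adjusted p = 0.0672). Pdp2 kept its RNA call only without siKrr1 C (edgeR adjusted p up to 0.105, without siNC), and lost its footprint call without any 1 of the controls (up to 0.113, without Lipo). Aco1 lost its RNA call without any 1 of the controls (edgeR adjusted p up to 0.113, without Lipo) and its footprint call without siNC or Lipo (up to 0.0727, without siNC). Ogdhl footprints kept the call only without siKrr1 C (edgeR adjusted p up to 0.126, without siGFP).

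Among other glycolysis and glucose genes, 1 of 25 tested was called in RNA and 0 in footprints by edgeR. The shares over all genes were 4.8% and 6.07%. In footprints 4 of the 25 had an unadjusted p under 0.05 (edgeR), beside 22.5% of all genes. DESeq2 called the same gene as edgeR in RNA, and called it in footprints too. It was 9630033F20Rik, the symbol now given as Tigar, a fructose bisphosphatase-like regulator, which fell from 208 ± 5.36 to 157 ± 24.5 CPM (-0.41 ± 0.10, edgeR adjusted p = 0.0443), a call kept only when siKrr1 C was the lysate left out (up to 0.161, without Lipo). Its footprint value was -0.35 ± 0.10 (edgeR adjusted p = 0.0621). Of 7 pentose phosphate genes, 0 were called in either assay by edgeR or DESeq2. An unadjusted p under 0.05 (edgeR) was found for 3 in RNA and 1 in footprints, beside 20.9% and 22.5% of all genes. The smallest p among them was that of Pgls (0.21 ± 0.07 in RNA, edgeR adjusted p = 0.13).

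Of 8 genes that make or regulate HIF, 1 was called in RNA, beside 4.8% of all genes. It was the asparagine hydroxylase Hif1an, which fell by 0.33 on the log2 scale (edgeR adjusted p = 0.0477). That call, too, held only with siKrr1 C left out (edgeR adjusted p up to 0.179, without siGFP). Hif1an footprints gave 0.01 ± 0.10. Hif1a footprints were at 253 ± 9.99 CPM in controls and 257 ± 12.2 CPM in knockdown lysates. Of HIF targets outside glycolysis, 0 of 12 in RNA and 0 of 11 in footprints were called by edgeR. At an unadjusted p under 0.05 (edgeR) there were 2 and 1, beside 20.9% and 22.5% of all genes. DESeq2 called Vegfa in RNA. The smallest p-values were those of Vegfa in RNA (-0.69 ± 0.22, edgeR adjusted p = 0.101) and of Ddit4 in footprints (0.76 ± 0.21, edgeR adjusted p = 0.0623).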

How the data were processed

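RNA-seq and ribosome profiling libraries were made from 3 control and 3 Krr1 knockdown lysates of R1 mouse embryonic stem cells. The deposited values are raw counts per gene symbol from unique alignments. The submitters' processing notes name STAR, HTSeq and mm10, while the sources used here do not give versions, annotation or strand setting. Reads on no gene (31.2% to 33.4% of RNA and 57.5% to 63.3% of footprint alignments) and ambiguous reads entered neither library sizes nor tests. Knockdown columns carry letters and titles carry numbers, so columns were assigned to their group only. No pair of libraries of a group was a duplicate (chi-square per degree of freedom 3.88 to 27.2).

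The quasi-likelihood test of edgeR 4.0.16 (R 4.3.3, limma 3.58.1) was run on counts of genes kept by filterByExpr, scaled by TMM, and p-values were adjusted by Benjamini-Hochberg over all genes tested. Biological coefficients of variation were 11.0% (RNA) and 9.30% (footprints). A change in translational efficiency is the assay by condition interaction. The scripts were tested on simulated data. The labels state that each lysate was divided between the assays. Over 6117 genes, the deviations of a lysate's RNA and footprints from their group means had an r of 0.266 to 0.713, in each case above the r with other lysates of its group, so lysate was used as a block in an alternative.

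Alternatives were other scaling factors, DESeq2 1.42.0, no filter on low counts and leaving out each lysate. Members given in every library are those called, the 5 with the smallest p in each comparison and the 4 with the highest control RNA level. Slc2a1, the partner of Slc2a3 in a pair ratio, is also given in every RNA library, and was chosen outside this rule after its values were seen. From each list of other pathway genes, called genes are named, or else the gene with the smallest p. The members and lists were chosen with earlier results of these data known. Promoter windows and gene positions come from RefSeq tables on GRCm38.p6. The symbols of all 32 members matched the gene table, and 30 had a promoter entry.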

Additional observations from a re-analysis of the deposited data

How the results depend on the processing

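Krr1, the called member and the called genes of the other pathway lists kept their direction under each alternative run. The called cell type markers were not followed in the alternatives. Values of uncalled members changed sign 25 times in RNA, 18 in footprints and 19 in translational efficiency. In RNA, members called went from 0 to 2 with DESeq2 (Hk1, Pfkp) and to 3 with no filter on low counts (Gapdh, Hk1, Pfkp), and ran from 0 to 1 with 1 lysate left out (Pfkp, without siKrr1 D). In footprints they went from 1 to 3 with DESeq2 (Pfkl, Pfkp, Slc2a3) and to 4 with no filter (also Slc2a1), and ran from 0 to 1 with 1 lysate left out. Over all genes, 674 were called in RNA (378 higher, 296 lower), 1202 with DESeq2 (666 and 536), 1059 with no filter (582 and 477) and 114 to 1298 with 1 lysate left out. In footprints 806 were called (450 higher, 356 lower), 1157 with DESeq2 (632 and 525), 1400 with no filter (784 and 616) and 131 to 1337 with 1 lysate left out. For translational efficiency, 0 genes were called, 2 with DESeq2, 2 with no filter, 0 to 1 with 1 lysate left out and 6 with the lysate as a replicate block, of which 0 were members. Within RNA or footprints no paired analysis was possible because the knockdown and control columns share no replicate number. The cause of these differences was not tested.

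The median log2 level of knockdown against control footprints moved from -0.14 to -0.25 for the 5 lower glycolysis members when the mean over members replaced the median, from -0.06 to -0.0856 for all members under the same change and to -0.0353 with library totals without TMM, and from -0.03 to 0.0014 for the 9 TCA members without TMM. The 7 pair ratios moved by less than the larger group SD under each alternative run. An outlying lysate widens that SD, so this measure can miss dependence on a single lysate. For Ldha to Ldhb in RNA, the log2 ratios of knockdowns A, C and D were 3.41, 4.25 and 4.07, against 4.10 to 4.19 in controls. The footprint values were 3.08, 3.73 and 3.81, against 3.44 to 3.68. The negative differences of this pair therefore rest on knockdown A. Footprint counts of Pgk1 (14 to 18 per library), Eno1 (9 to 22) and Pgam1 (43 to 92) were low, which limits their precision; the part of near-identical copies in these counts was not tested. The number of lysates, 3 a group, limits all values.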
